A study of Mus musculus with 3 samples.

Results

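Osteoblasts, the cells that lay down bone, were picked out of single-cell libraries of the mouse vomeronasal organ (VNO), a chemosensory organ of the nasal septum that lies beside the vomer bone. A barcode was kept when it held 200 to 9000 genes, at least 1000 UMIs (unique molecular identifiers, each standing for 1 captured transcript) and at most 10% of UMIs from genes whose symbol starts with mt-. A kept cell was taken as an osteoblast when Ibsp, Bglap and Bglap2 together gave at least 10 UMIs and 0.3% of its UMIs, and Col1a1 and Col1a2 together gave at least 1%. The rule took 464 of 13353 kept cells. Of these, 221 of 4305 came from the control at postnatal day 10 (P10), 199 of 3741 from the mutant at P10 and 44 of 5307 from the mutant at 3 months. Values are given in that order throughout. The cells were thus selected on the levels of these 5 genes, which are described and support nothing.

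The series asked how the transcription factor AP-2ε, encoded by Tfap2e, acts when it is made outside its usual cells among the vomeronasal neurons. The P10 control came from OMPCre heterozygous mice, in which Cre is driven from Omp, a gene of mature olfactory and vomeronasal neurons. The P10 mutant and the 3-month mutant (P90 in its title) came from OMPCreR26AP2e double heterozygous mice, which carry the same OMPCre allele and an AP-2e transgene at the Rosa26 locus. All mice were male, on a mixed C57 BL/6J and 129P2/OlaHsd background, and the number of animals behind a library was not given in the sources used here. With 1 library a group, neither genotype at P10 nor age in the mutants can be told apart from a difference between single libraries, and no p-value is given. Intervals are 95% intervals that cover counting error only, and no value has a replicate check. Osteoblasts were not the purpose of the dissection.

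Osteoblasts arise from mesenchymal cells under Runx2 and then Sp7. They secrete osteoid, which is mostly type I collagen, and then mineralise it with the help of phosphatases and of acidic, calcium-binding proteins such as bone sialoprotein (Ibsp), osteopontin (Spp1), osteocalcin (Bglap) and Dmp1. Some osteoblasts are buried in the matrix and become osteocytes, which make Sost and Dmp1, and others stay on the bone surface as flat lining cells. Osteoblast-lineage cells also set the pace of bone removal, since Tnfsf11 (RANKL) and Csf1 drive the formation of osteoclasts.

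The selected cells made up 5.13% (exact Clopper-Pearson interval 4.49 to 5.84%) of kept cells in the control, 5.32% (4.62 to 6.09%) in the mutant at P10 and 0.829% (0.603 to 1.11%) at 3 months. A share of a dissociated suspension depends on what was dissected and what survived freezing, and was not read as an amount of bone. The libraries held 83870584, 80760046 and 70074800 UMIs in that order, and the osteoblasts held 3985169, 3594273 and 398688 of them. The median osteoblast held 18268 UMIs in the control, 16133 in the mutant at P10 and 9066.5 at 3 months. No osteoblast barcode was shared between libraries, and 4 to 7 kept barcodes were shared by any pair. A further 73, 94 and 5 barcodes met the gene rule but had more than 10% mitochondrial UMIs.

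The cells nearest the limits differed between ages. The collagen condition removed 19, 16 and 13 kept cells that met the condition on Ibsp, Bglap and Bglap2, and the highest of them had 0.989%, 0.990% and 0.989% of UMIs from Col1a1 and Col1a2. Just inside the limit, the lowest selected cells had 1.08%, 1.01% and 1.06%. Between 1% and 1.5% lay 6.79% of the control osteoblasts, 6.03% of the P10 mutant osteoblasts and 34.1% of the 3-month osteoblasts. For the bone genes, the lowest selected cells had 0.30003%, 0.302% and 0.362%, and the highest cells under the limit had 0.282%, 0.296% and 0.297%.

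Of the 6 osteoblast markers, Ibsp, Bglap, Bglap2 and Col1a1 helped select the cells, so their presence checks nothing. Spp1 and Ifitm5 did not, and a UMI of at least 1 of them was seen in 217 of 221 control cells, 195 of 199 P10 mutant cells and 33 of 44 cells at 3 months. The other 11 of 44 cells at 3 months (25%) lacked both. Together the 6 markers took 134504 CPM (a gene's UMIs, summed over the cells, per 1000000 UMIs of those cells) in the control, 137483 in the mutant at P10 and 64552 at 3 months. In kept cells outside the osteoblasts the same sum was 2110, 1900 and 412 CPM, a gap that the rule fixes in part. A UMI of Spp1 or Ifitm5 is a weak check of identity. Fibroblasts, defined below, read 3106, 470 and 28.6 CPM of Spp1 and 12.5, 23.5 and 1.74 CPM of Ifitm5. Depth also differed between libraries, so the shares of cells with such a UMI were not on equal terms. The tooth markers Dspp and Amelx were at 0 in all osteoblasts. Of 5 chondrocyte markers 3, 4 and 3 were detected, summing to 108, 112 and 47.7 CPM against 174, 173 and 116 CPM in other kept cells, with Matn1 at 0 in all 3 libraries. Whether the bone was the vomer cannot be read from these counts. Epithelial markers (Epcam, Krt5, Krt8 and Krt18) summed to 378, 719 and 103 CPM in the osteoblasts, against 5497, 6173 and 3040 CPM in other kept cells. The smooth muscle and pericyte markers Rgs5, Acta2 and Notch3 summed to 204, 206 and 1026 CPM, and the fibroblast markers Dcn, Lum, Dpt, Pdgfra and Pi16 to 1518, 1385 and 3491 CPM. The osteoclast markers Acp5, Ctsk, Mmp9, Dcstamp and Ocstamp summed to 276, 270 and 469 CPM, with Dcstamp at 0 in all 3 libraries and Acp5 at 0 at 3 months. The last 3 sums were highest at 3 months and move with several results below, where their part was not tested. The 11 cells at 3 months without a UMI of Spp1 or Ifitm5 had 6442 CPM of the fibroblast markers and 2818 CPM of the smooth muscle and pericyte markers, against 2178 and 228 CPM in the other 33 cells.

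**Figure D1:**
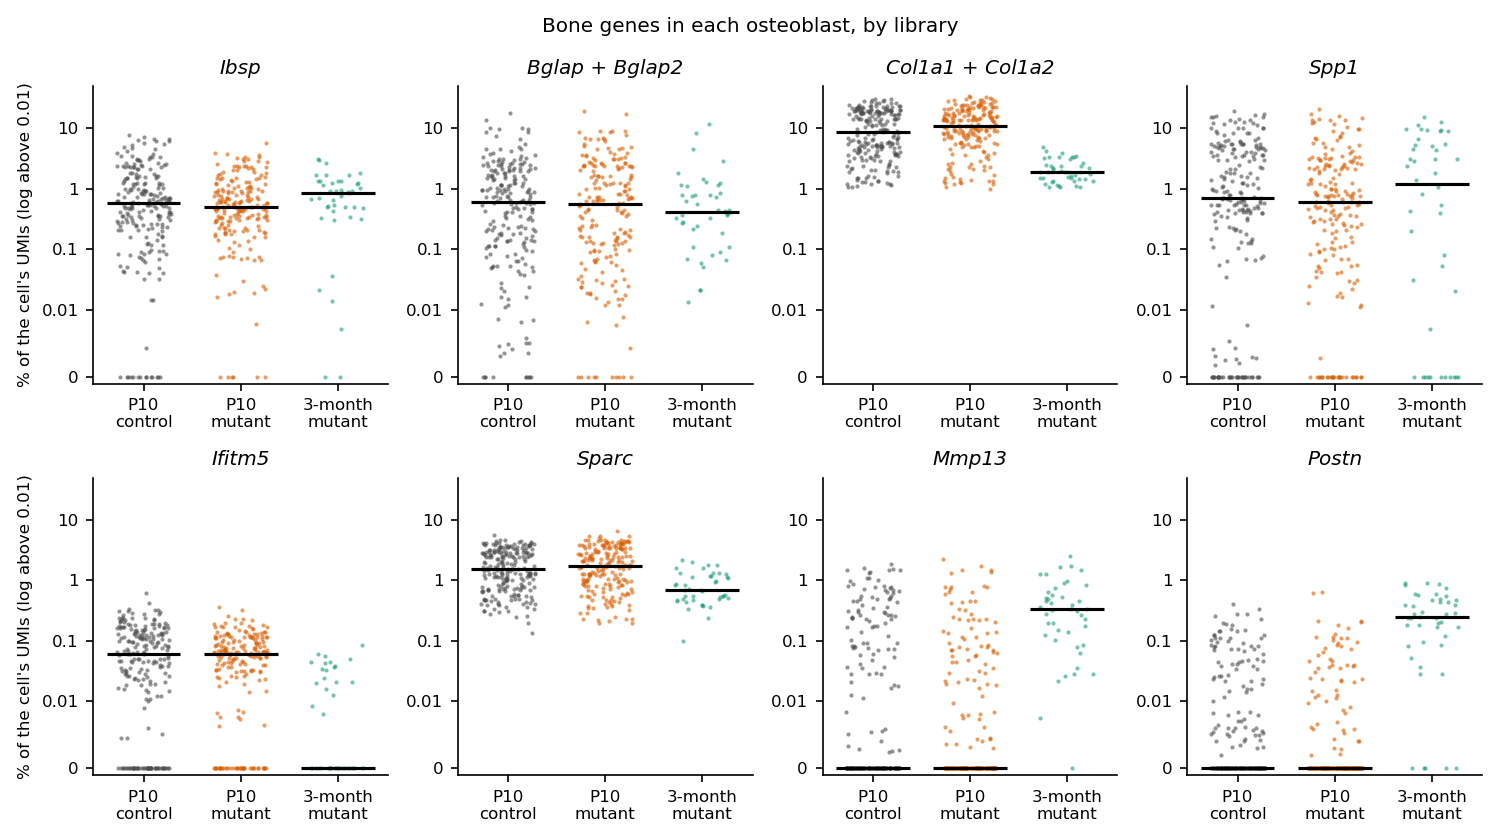
Percent of each osteoblast's UMIs taken by 8 bone genes or gene pairs (y axis, logarithmic above 0.01), with 1 point a cell, in the control (221 cells), P10 mutant (199) and 3-month mutant (44). Black bars are medians over cells. Type I collagen and Sparc sit lower at 3 months, Mmp13 and Postn sit higher, and Ibsp overlaps in all libraries.

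Type I collagen took a large share of the transcripts of P10 osteoblasts. The median osteoblast spent 8.73% of its UMIs on Col1a1 and Col1a2 in the control and 10.8% in the mutant at P10, with cells reaching 30.5% and 34.7%. In the 3-month mutant the median was 1.88% and the highest cell 4.87%. The plot of bone genes by cell shows that the top of the 3-month range lay below the P10 medians. Spp1, which binds mineral and anchors cells to it, was not used by the rule and had a wide spread. Its median was 6948 CPM per cell in the control with quartiles of 1265 and 44184.5, against 6029 in the mutant at P10 (814 to 23895) and 12172.5 at 3 months (53.1 to 52859), where 1 cell held 21.6% of the Spp1 UMIs.

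Bone sialoprotein and osteocalcin, both used by the rule, varied widely from cell to cell. Ibsp lies on mouse chromosome 5 (chr5:104299171-104311469, GRCm38, plus strand) in a cluster with Dmp1, Mepe and Spp1, and codes for a protein that starts mineral crystals. Bglap (chr3:88383501-88384464, minus strand) and its neighbour Bglap2 (chr3:88377736-88378699) code for osteocalcin, a vitamin K-dependent protein of mature osteoblasts. The transcripts of Bglap and Bglap2 were 98.6% identical over 440 aligned bases with an identical run of 241 bases, so reads can be shared between them and the levels of the single copies are uncertain. The promoters of Ibsp, Bglap and Mmp13 are shown since these 3 genes carry the contrasts between cells described here. Each is the 250 bases before the transcription start, 5′ to 3′ on the gene's strand, from RefSeq (GRCm38.p6). The Ibsp start in RefSeq lies downstream of the gene start given above, so the last 116 bases of that window are inside the gene as annotated there. Capitals mark the RUNX core ACCACA (or TGTGGT on the other strand), which 14.0% of 32851 such mouse windows hold, and the AP-1 site TGAGTCA (or TGACTCA), which 4.46% hold.
Ibsp, chr5:104299037-104299286, plus strand: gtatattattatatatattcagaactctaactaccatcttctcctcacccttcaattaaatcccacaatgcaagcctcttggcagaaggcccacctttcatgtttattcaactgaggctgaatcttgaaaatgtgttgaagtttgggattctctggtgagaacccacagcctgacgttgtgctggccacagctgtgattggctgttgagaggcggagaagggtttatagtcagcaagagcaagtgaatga
Bglap, chr3:88384467-88384716, minus strand: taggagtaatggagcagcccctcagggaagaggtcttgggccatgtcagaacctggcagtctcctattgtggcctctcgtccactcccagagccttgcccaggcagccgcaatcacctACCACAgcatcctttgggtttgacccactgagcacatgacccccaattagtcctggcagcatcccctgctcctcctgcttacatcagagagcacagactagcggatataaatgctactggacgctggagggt
Mmp13, chr9:7272264-7272513, plus strand: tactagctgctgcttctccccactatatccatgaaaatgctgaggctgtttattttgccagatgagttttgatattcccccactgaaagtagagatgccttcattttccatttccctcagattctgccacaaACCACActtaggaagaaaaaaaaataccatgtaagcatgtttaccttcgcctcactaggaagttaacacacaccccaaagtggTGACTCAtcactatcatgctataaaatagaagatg
Within these windows the Bglap promoter held 1 RUNX core and the Mmp13 promoter 1 RUNX core and 1 AP-1 site, whereas the Ibsp window held neither. A match describes the letters only and says nothing of binding.

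Across cells, Ibsp and Bglap levels had a Spearman correlation of -0.51 in the control (221 cells), -0.41 in the mutant at P10 (199 cells) and -0.07 at 3 months (44 cells). The cells of a library share its preparation, and the rule itself empties the corner where both genes are low, which pushes such values down. Bglap and Bglap2 had correlations of 0.90, 0.87 and 0.87 and share reads. The share of Bglap and Bglap2 in the summed UMIs of the 3 genes had quartiles of 9.40, 43.7 and 88.5% in the control, of 9.26, 49.3 and 87.0% in the mutant at P10 and of 16.3, 44.8 and 70.4% at 3 months. At P10 more cells lay near either end than in the middle. The rule asks for only 10 UMIs of the 3 genes, so the share of a shallow cell is imprecise. The shallowest P10 osteoblasts held 1053 UMIs in the control and 1009 in the mutant. Under 10% lay 58 of 221 control cells and 51 of 199 P10 mutant cells, over 90% lay 52 and 42, and between 40 and 60% lay 12 and 18. In the 3-month mutant 8 of 44 cells lay under 10%, 7 over 90% and 8 between 40 and 60%.

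**Figure D2:**
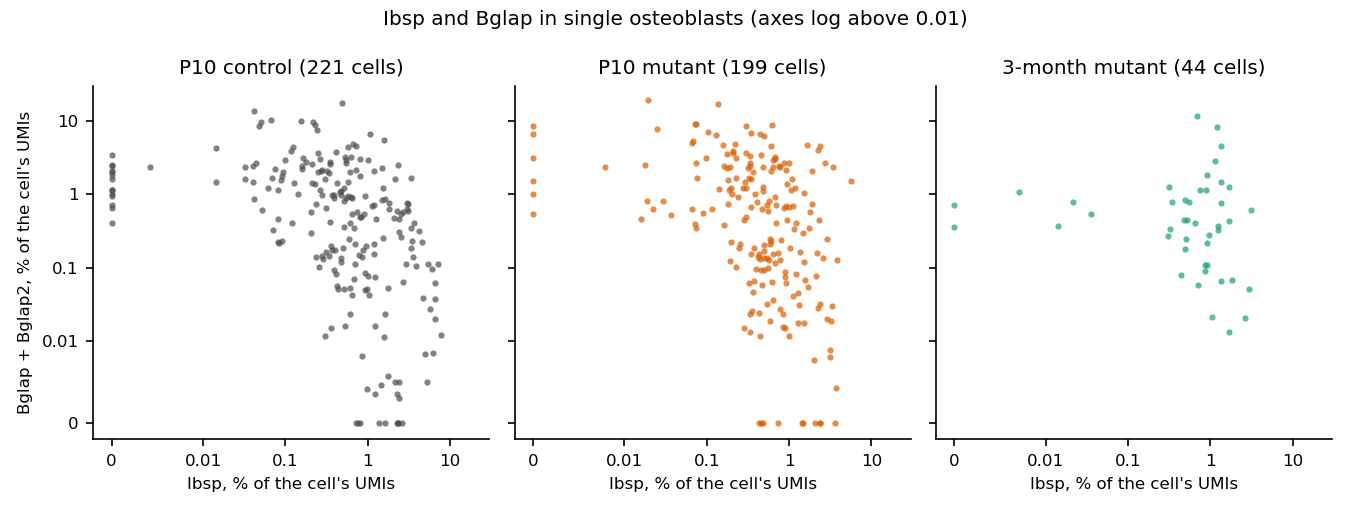
Ibsp (x axis) against Bglap plus Bglap2 (y axis) as percent of each cell's UMIs, both axes logarithmic above 0.01, 1 point a cell and 1 panel a library. Cells run from high Bglap with little Ibsp to high Ibsp with little Bglap, and the empty lower left corner is set by the selection rule.

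Cells were divided at the median of that share into Ibsp-rich and Bglap-rich cells (111 and 110, 100 and 99, 22 and 22), which are ends of a range and not types. Median depth was 20997 and 15633.5 UMIs in the control, 16316 and 15721 in the mutant at P10, and 7998 and 10139 at 3 months. Ifitm5, a membrane protein of mineralising osteoblasts, was lower in Bglap-rich cells in each library. It stood at 1326 against 596 CPM in the control, 906 against 628 in the mutant at P10 and 165 against 120 at 3 months. The ratios were 0.450 (0.418 to 0.483), 0.693 (0.642 to 0.748) and 0.726 (0.412 to 1.27), so the 3-month interval spans 1. Smpd3, the sphingomyelinase that bone mineralisation needs, had ratios of 0.708, 0.673 and 0.230, the last turning to 1.01 when only the cells at both ends of the share were set side by side. Panx3, a channel of osteoblasts and cartilage cells, had ratios of 0.543, 0.351 and 0.580, with a 3-month interval of 0.219 to 1.47. The protease inhibitor Serpine2 had ratios of 0.495, 0.444 and 0.449, and the collagenase Mmp13 of 0.529, 0.359 and 0.454. Those genes stood on the Ibsp side. Col1a1 lay slightly on the Bglap side, at ratios of 1.24, 1.31 and 1.23. Dmp1, made by late osteoblasts and young osteocytes, did not keep 1 direction: its ratio was 2.31 (2.12 to 2.53) in the control, 0.981 (0.905 to 1.06) in the mutant at P10 and 0.344 (0.230 to 0.504) at 3 months. With only the cells at both ends of the share, the control and P10 mutant ratios were 9.96 and 3.401. The Wnt inhibitor Sost, a gene of mature osteocytes, was lower in Bglap-rich cells at P10, at 58.6 against 21.0 CPM in the control and 35.8 against 3.23 CPM in the mutant. Of the Sost UMIs, 1 cell held 27.5% in the control and 51.5% in the mutant at P10.

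Fibroblasts of the same suspensions served for comparison, taken as kept cells outside the osteoblasts with at least 10 UMIs and 0.3% of UMIs from Dcn, Lum, Dpt and Pdgfra (212, 180 and 434 cells). A ratio of CPM of at least 2 in all 3 libraries was found for 106 of 7638 genes tested (1.39%), and one of at most 0.5 in all 3 for 688 (9.01%). The median log2 ratio over genes was -0.50, -0.56 and -0.06, so the typical gene read lower in P10 osteoblasts than in P10 fibroblasts. Genes were then ranked by the smallest ratio of the 3 libraries, among those with at least 50 UMIs in the osteoblasts of every library. After the selecting genes, the highest were Smpd3, Ifitm5, Ptprz1, Dmp1, Ptgis, Cadm1, Bmp3, Insc, Spp1, Col13a1, Sgms2, Mef2c, Timp1, Ramp1, Cdh2, Sp7 and Mmp13. Smpd3 read 456, 469 and 128 CPM in osteoblasts against 2.42, 7.83 and 3.69 CPM in fibroblasts. Ifitm5 was 81.6-fold, 32.5-fold and 80.9-fold higher than in fibroblasts. Sp7 (osterix), which commits cells to the osteoblast lineage, was 5.92-fold, 7.62-fold and 65.2-fold higher. Ptgis, which makes prostacyclin, was 11.3-fold, 21.6-fold and 15.9-fold higher, and Mef2c, a regulator of Sost in bone, 6.79-fold, 7.93-fold and 13.8-fold higher. Of the 19 tested genes of mineralisation and mineral-binding matrix, 11 were higher in all 3 libraries, selecting genes included, and 1 was lower. The Wnt pathway list had 3 higher and 9 lower of 20, and the osteoclast coupling list 1 higher and 6 lower of 11. A cell with enough UMIs from both gene sets counted as an osteoblast, which bounds this comparison.

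At P10 and under the cell rule given above, few genes were called between the libraries of the 2 genotypes. A gene was tested when it held at least 50 UMIs in both libraries together and called when its CPM ratio reached 2 or fell to 0.5. Of 8496 tested genes, 81 (0.953%) were called higher and 117 (1.38%) lower in the mutant at P10, with a median log2 ratio of -0.05. For 58 of the higher and 64 of the lower genes, more than 20% of the UMIs came from 1 cell in the library where the gene was higher. Of 373 tested genes in the lists by role, 8 were called higher (2.14%) and 9 lower (2.41%). That split depended on the cell rule. At a mitochondrial limit of 5%, 2 listed genes were called higher and 34 lower of 334 tested. Among Mmp13-rich cells, defined below, 8 were higher and 19 lower of 302. The list counts that follow use the 10% limit and all osteoblasts. The list of small leucine-rich proteoglycans and matricellular proteins had 4 lower and 0 higher of 20, at a median log2 ratio of -0.43. Imprinted growth genes had 3 higher and 1 lower of 16, and the cell cycle list 3 lower and 0 higher of 20. No gene was called in the lists of lineage transcription factors (19 tested), mineralisation and mineral-binding matrix (20), fibrillar and other collagens (16), collagen folding, crosslinking and export (34), BMP and TGF-beta (28), or matrix proteases and inhibitors (18).

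The marker and mineral genes named next differed by less than the called fold at P10. Runx2 read 239 CPM in the control and 231 in the mutant at P10, a ratio of 0.963 (0.877 to 1.06). Sp7 read 146 and 160 CPM, a ratio of 1.10 (0.978 to 1.24), and Smpd3 456 and 469 CPM, a ratio of 1.03 (0.961 to 1.10). For these 3 genes the counting interval spans 1. Ifitm5 read 1021 and 762 CPM, a ratio of 0.746 (0.711 to 0.784), and Spp1 had a ratio of 0.737 (0.731 to 0.744). Alpl, the tissue-nonspecific alkaline phosphatase that frees phosphate for mineral, read 308 and 196 CPM, a ratio of 0.637 (0.580 to 0.699). Among the selecting genes, Ibsp read 15009 and 9377 CPM, Bglap 10000.3 and 14429.9 CPM, and Col1a1 75915 and 86349 CPM. Their counting intervals exclude 1, yet with 1 library a group the spread between like animals is unknown.

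By its counting bound, the tested gene furthest up at P10 was Tfap2e, the gene that the transgene carries. It had 0 UMIs in 221 control osteoblasts, 172 UMIs (47.9 CPM, 41.0 to 55.6) in the mutant at P10 and 6 UMIs (15.0 CPM, 5.52 to 32.8) at 3 months. With the control's 0 set to 3 counts, the P10 mutant was 63.6-fold higher, and the lower bound of the counting interval was 51.1-fold. A UMI was seen in 0 of 221 cells (exact upper limit 1.66%), in 66 of 199 cells (33.2%) and in 6 of 44 cells (13.6%). Other kept cells had 10.4, 170 and 52.5 CPM, and cells with at least 10 Omp UMIs had 14.8, 446 and 208 CPM, so osteoblasts lay below both in each mutant. Fibroblasts had 0.404, 18.6 and 10.2 CPM. In the P10 mutant, 14 osteoblasts with 3 or more Tfap2e UMIs held 110 of the 172 UMIs, and 1 cell held 30. In those 14 cells the epithelial markers summed to 3894 CPM, against 346 CPM in the 52 cells with 1 or 2 Tfap2e UMIs and 505 CPM in the 133 cells without one. Free RNA and mixed droplets were not separated from expression, and their part in the result was not tested. With the mitochondrial limit at 5% the P10 mutant level was 26.4 CPM. Without cells holding a UMI of Ptprc, Pecam1, Cdh5, Epcam or Omp, the ratio with the 0 set to 3 counts was 21.1.

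Gt(ROSA)26Sor, the noncoding transcript of the locus that carries the transgene, fell 2.96-fold (1.80 to 5.09), from 17.3 CPM in the control to 5.84 CPM in the mutant at P10, and read 7.52 CPM (1.55 to 21.99) at 3 months, on 3 UMIs. Fibroblasts had 23.002, 6.85 and 5.21 CPM and other kept cells 40.8, 15.0 and 13.4 CPM. The P10 mutant was lower in each of the 3 cell sets, and the 3-month interval of the osteoblasts includes the control value.

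Few of the remaining called genes at P10 were genes of bone. Cdkn1c, an imprinted inhibitor of the cell cycle, fell 2.72-fold (2.35 to 3.16), from 180 to 66.2 CPM, and in fibroblasts its ratio was 0.776. Among Mmp13-rich cells, defined below, its ratio was 1.30. Tnn (tenascin W), a matrix protein of bone surfaces, fell 2.69-fold (1.90 to 3.87) from 32.9 to 12.2 CPM and was also at a ratio of 0.322 in fibroblasts, but at 1.07 among Mmp13-rich cells. Fbln1 fell 2.07-fold, Ccn5 2.03-fold and Ogn 2.43-fold, the last with 25.7% of its P10 control UMIs in 1 cell. The imprinted noncoding RNAs Meg3, Rian and H19 were called higher, at 287 against 104 CPM, 45.6 against 11.5 CPM and 24.8 against 12.3 CPM. Of their UMIs in the mutant at P10, 1 cell held 34.9%, 40.9% and 38.2%, Meg3 turned to a ratio of 0.287 at the 5% mitochondrial limit, and H19 to 0.617 without the collagen condition. The glucose transporter Slc2a1, the small heat shock protein Hspb1 and the metallothionein Mt2 were called higher at 2.71-fold, 2.32-fold and 2.24-fold, also with 20.5 to 26.4% of UMIs in 1 cell. Cd74, an antigen presentation gene of immune cells, was called higher at 2.73-fold with 39.4% of its UMIs in 1 cell. Sost fell 2.27-fold (1.70 to 3.05), on 171 and 68 UMIs, also with over 20% of its P10 control UMIs in 1 cell.

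By the counting interval, and leaving out genes with over 20% of UMIs in 1 cell, the other genes called furthest up were Slc16a11, AA465934, Spint1, Tead3, Sinhcaf, Cartpt, Foxo4, Lca5l, Fzd8, Adam30 and Fam160a1. Each had 120 UMIs or fewer in the mutant at P10. AA465934 was also higher in fibroblasts, at a ratio of 3.64. The genes called furthest down were Ftl1-ps1, Limch1, Irgm1, Cdkn1c, Eif3j2, Stmn1, Tnn, Nsg1, Kcnj15, Gt(ROSA)26Sor, Kif23 and Olfml2b. Ftl1-ps1 fell from 751 to 218 CPM, but it is a pseudogene close in sequence to Ftl1, as Eif3j2 is to Eif3j1, and their counts are uncertain.

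Between P10 and 3 months in the mutants, many genes differed. The P10 mutant library also enters the P10 comparison, so the comparisons are not independent. Of 6500 tested genes, 1067 (16.4%) were called higher and 584 (8.98%) lower at 3 months, and the median log2 ratio over all tested genes was 0.24. That shift bears on each direction given here. The shares of 16.4% higher and 8.98% lower are the background for every list count with age below. Taken relative to the median, 674 genes were higher and 841 lower, and with Col1a1 and Col1a2 left out of the totals, 741 were higher and 788 lower with a median of 0.05. In fibroblasts the median was -0.17. The 3-month osteoblasts number 44, and for 198 of the higher and 80 of the lower genes 1 cell held over 20% of the UMIs.

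**Figure D3:**
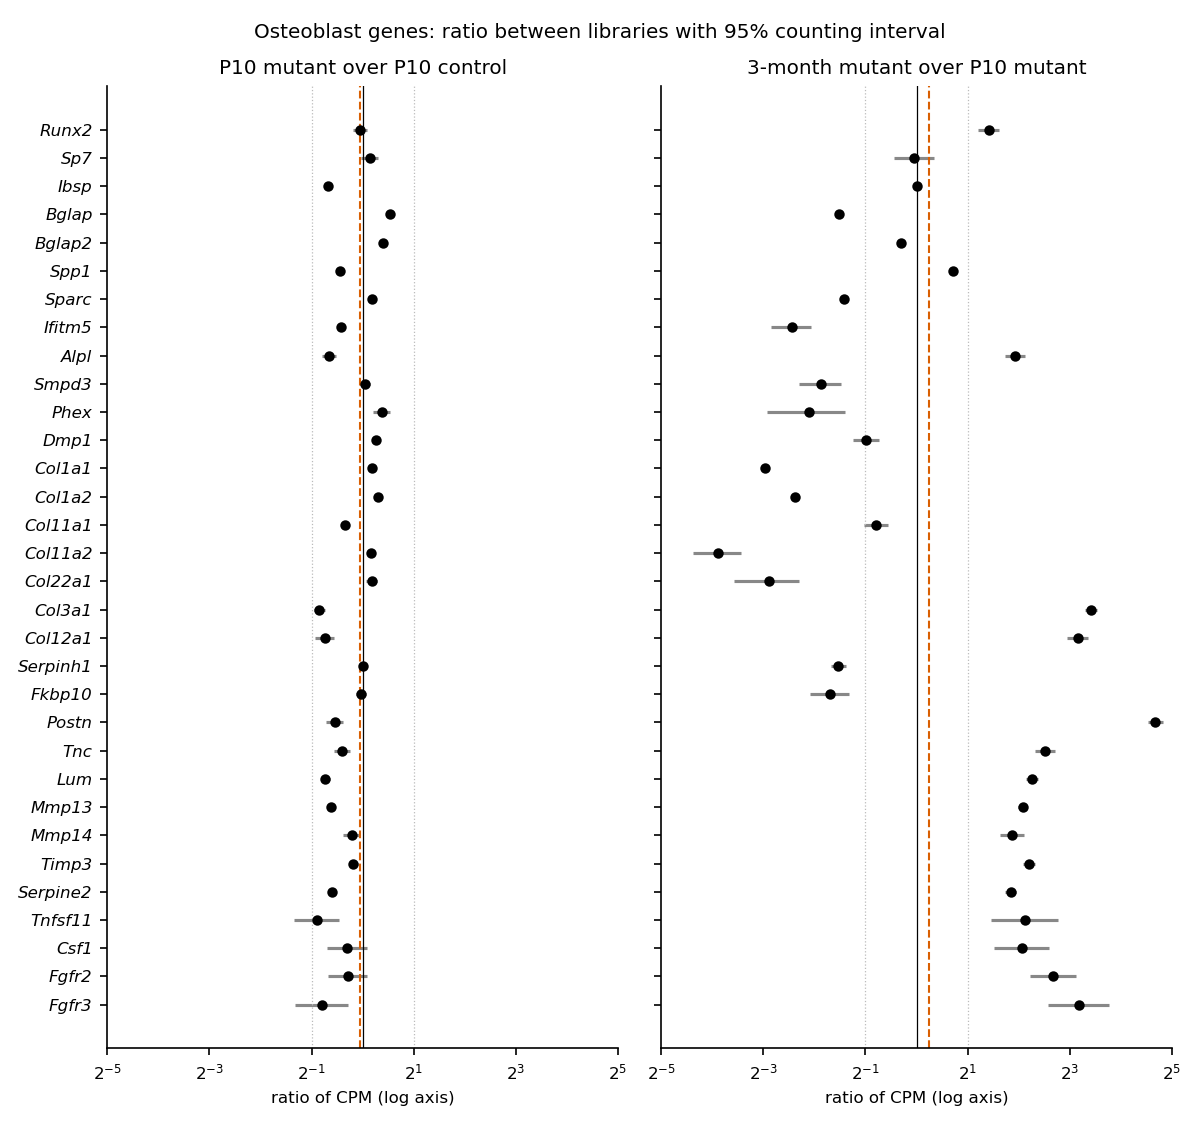
Ratio of CPM for 32 osteoblast genes (logarithmic x axis, base 2) between P10 genotypes (left) and between ages in the mutants (right), with 95% counting intervals. Dotted lines mark ratios of 0.5 and 2 and the dashed line the median of all tested genes. P10 ratios lie within the dotted lines, and the age ratios reach from 0.067 for Col11a2 to 25.6 for Postn.

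The collagens did not move as a group: of 16 tested, 6 rose, 5 fell and 5 were not called, at a median log2 ratio of 0.40. In fibroblasts none of the same 16 reached a ratio of 2 and 10 were at 0.5 or below. Col1a1 read 75915, 86349 and 10996 CPM and Col1a2 46633, 57186 and 10958 CPM in the control, P10 mutant and 3-month mutant. Both helped select the cells, so their values are given with no weight: they were 7.85-fold and 5.22-fold lower at 3 months. The rule did not use Col11a2, a minor fibrillar collagen chain, which fell 14.8-fold (10.9 to 20.8), from 1488 to 100 CPM. Col22a1 fell 7.45-fold (4.90 to 11.9) from 411 to 55.2 CPM, and Col24a1, a fibrillar collagen of forming bone, went from 372 UMIs to 3, a ratio of 0.073 (0.015 to 0.214). Each of these 3 genes had differed little at P10, with ratios of 1.12, 1.13 and 1.07. In the opposite direction Col3a1 rose 10.7-fold (9.88 to 11.6), from 318 to 3401 CPM, and the chains of type VI collagen, Col6a1, Col6a2 and Col6a3, rose 4.43-fold, 5.37-fold and 3.44-fold. Col16a1 rose 4.002-fold, and Col12a1 rose 8.92-fold with 43.3% of its UMIs in 1 cell. Among cells with a UMI of Spp1 or Ifitm5, Col3a1 was 7.40-fold and Col12a1 3.12-fold higher. In that set, chosen after the values were seen, 6 collagens rose and 7 fell of 16. The 11 cells at 3 months without such a UMI had 6767 CPM of Col3a1, against 1903 CPM in the other 33. In fibroblasts Col3a1 and Col6a1 were lower at 3 months, at ratios of 0.271 and 0.569. Col5a1, Col5a2 and Col11a1 were not called, at ratios of 1.19, 0.628 and 0.577.

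Part of the machinery that folds, crosslinks and exports collagen was lower at 3 months. Of 31 tested genes 11 fell, 2 rose and 18 were not called, with a median log2 ratio of -0.71 against 0.24 over all genes. Serpinh1, the collagen chaperone HSP47, read 2844, 2859 and 988 CPM and fell 2.89-fold (2.62 to 3.21) at 3 months. Fkbp10 fell 3.23-fold (2.49 to 4.26) and P3h1, a prolyl 3-hydroxylase, 3.51-fold (2.25 to 5.79); both genes are mutated in brittle bone disease. The 2 that rose were crosslinking enzymes, Loxl1 at 11.4-fold (8.35 to 15.7) and Loxl2 at 3.24-fold (2.51 to 4.16). Pcolce2, which helps cleave procollagen, had 183 UMIs in the mutant at P10 and 0 at 3 months, at least 5.45-fold lower by the counting interval. P4hb, a subunit of prolyl 4-hydroxylase, was among those not called, at a ratio of 1.05. Of general chaperones of the endoplasmic reticulum 3 of 24 rose and 4 fell, at a median log2 ratio of 0.10 that turned to -0.13 relative to all genes.

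Mineral genes split. Of 20 tested, 4 rose and 6 fell, and the median log2 ratio was -0.42. The 4 that rose were near the share of all tested genes, of which 16.4% rose and 8.98% fell. Ifitm5 read 1021, 762 and 140 CPM and fell 5.43-fold (4.17 to 7.20) at 3 months. Smpd3 fell 3.67-fold (2.77 to 4.94) and Phex, an endopeptidase that keeps mineral inhibitors in check, fell 4.31-fold (2.63 to 7.58). Sparc (osteonectin), a collagen-binding protein abundant in bone, fell 2.66-fold (2.58 to 2.75), from 25929 to 9739 CPM. Alpl went the other way: it read 308, 196 and 747 CPM and rose 3.81-fold (3.32 to 4.37). Among cells with a UMI of Spp1 or Ifitm5 its ratio was 2.71. The 11 cells at 3 months without such a UMI had 1230 CPM of Alpl, against 533 CPM in the other 33. Enpp1, which makes the mineral inhibitor pyrophosphate, rose 2.29-fold (1.73 to 3.00). Mgp, an inhibitor of calcification, rose 5.68-fold, with 20.9% of its UMIs in 1 cell, and in fibroblasts it rose 2.50-fold. Spp1 read 28194, 20789.7 and 34205 CPM, a ratio of 1.65 (1.62 to 1.68) that was not called, and Dmp1 read 558, 667 and 336 CPM, a ratio of 0.504 (0.420 to 0.5999), just short of a call. Of the selecting genes, Ibsp read 9377 and 9476 CPM in the mutants, Bglap 14429.9 and 5054 CPM and Bglap2 5775 and 4680.4 CPM.

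Several osteocyte genes were lower or unseen in the 3-month cells. Sost had 171, 68 and 0 UMIs. With the 0 set to 3 counts, the 3-month level was 2.51-fold below the P10 mutant. Dkk1, another secreted Wnt inhibitor of bone, had 122, 103 and 0 UMIs, 3.81-fold lower on the same setting. Fbln7 had 113, 77 and 0 UMIs, 2.85-fold lower on that setting. Of 12 tested osteocyte genes 5 fell and 1 rose (Capg, 2.61-fold), at a median log2 ratio of -0.89. In the P10 mutant, 1 cell held 51.5% of the Sost UMIs, 23.3% of the Dkk1 UMIs and 22.1% of the Fbln7 UMIs. With 44 cells, a gene seen in a few cells at P10 could be missed.

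Of 17 tested lineage transcription factors 7 rose and 2 fell, against 16.4% and 8.98% of all genes, and relative to the median of all genes 5 rose and 3 fell. Runx2, the founding factor of the lineage, read 239, 231 and 615 CPM and rose 2.66-fold (2.301 to 3.08) at 3 months, with a UMI in 71.9% of P10 mutant and 93.2% of 3-month osteoblasts. Sp7 read 146, 160 and 156 CPM, a ratio of 0.970 (0.734 to 1.26). The mesenchymal factors Prrx1, Prrx2, Twist1 and Zfhx4 rose 2.48-fold, 4.71-fold, 2.29-fold and 3.96-fold, and Msx1 rose 4.22-fold with 34.5% of UMIs in 1 cell. Atf4, needed for osteocalcin and collagen synthesis, fell 2.03-fold (1.60 to 2.61). The list's median log2 ratio was 0.85, and -0.04 among the 9 members with at least 200 UMIs. In fibroblasts Runx2 and Twist1 stood at ratios of 0.474 and 0.681 between the same libraries.

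Matricellular proteins and small leucine-rich proteoglycans had the highest median of the 19 lists. Of 20 tested, 13 rose and 1 fell, at a median log2 ratio of 1.95. Postn (periostin), a protein of the periosteum, read 209, 143 and 3654 CPM and rose 25.6-fold (23.1 to 28.3). It had a UMI in 43.9%, 31.7% and 88.6% of osteoblasts, and its median per cell was 0, 0 and 2439 CPM. In fibroblasts Postn went from 480 to 99.4 CPM, a ratio of 0.207, so the 2 cell sets moved in opposite directions. Tnc (tenascin C) rose 5.72-fold (5.01 to 6.52), from 166 to 948 CPM, against a ratio of 0.131 in fibroblasts. Lum (lumican), a regulator of collagen fibrils, rose 4.802-fold (4.41 to 5.23) and Ogn (osteoglycin) 55.1-fold (36.3 to 87.0), whereas in fibroblasts they stood at 1.22 and 1.54. Fbln1 and Ecm1 rose 5.30-fold and 3.21-fold. Aspn, Tnn, Fmod, Omd, Thbs1, Thbs2 and Ccn2 rose as well, each with over 20% of UMIs in 1 cell, and Aspn had 67.1% in 1 cell. The 11 cells without a UMI of Spp1 or Ifitm5 stood apart in these genes: they had 6605 CPM of Postn, 4161 of Lum, 904 of Ogn and 2297 of Aspn, against 2341, 1102, 174 and 145 CPM in the other 33 cells at 3 months, while Tnc stood at 472 against 1160 CPM. Among cells with a UMI of Spp1 or Ifitm5 alone (195 and 33, chosen after the values were seen), Postn was 18.9-fold, Tnc 7.04-fold, Lum 2.602-fold and Ogn 23.95-fold higher, and 11 genes of the list rose and 3 fell, at a median log2 ratio of 1.22. Across the 44 cells, all of 1 library, the Spearman correlation of Spp1 was -0.75 with Aspn and -0.54 with Tnn, and that of Postn with Lum 0.61. The fibroblast markers, which include Lum, were higher at 3 months in the osteoblasts (1385 to 3491 CPM) and in the fibroblasts (4936 to 13195 CPM). Their part in these results was not tested.

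**Figure D4:**
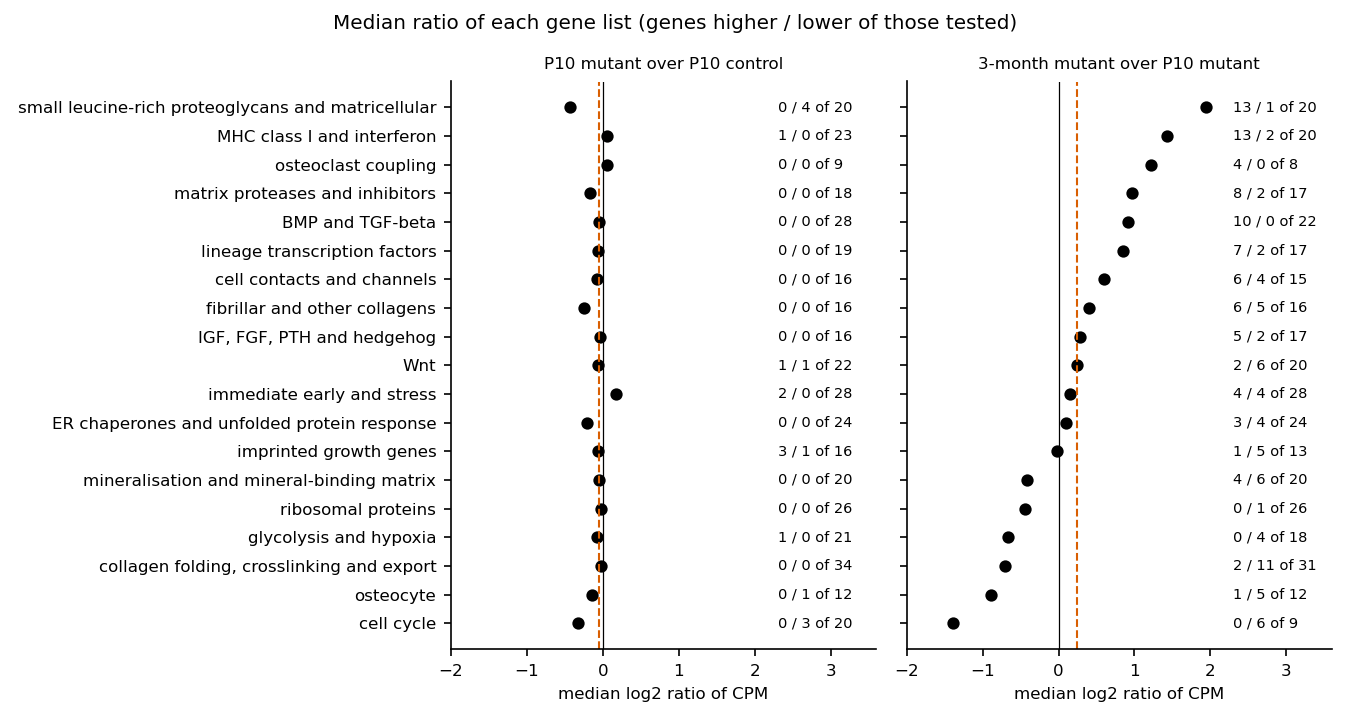
Median log2 ratio of CPM (x axis) of each of 19 gene lists (y axis) in osteoblasts, between P10 genotypes (left) and between ages in the mutants (right). Numbers give genes called higher and lower of those tested, and the dashed line is the median of all tested genes (-0.05 and 0.24). List medians lie between -0.43 and 0.18 at P10 and between -1.39 and 1.95 with age.

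Matrix proteases and their inhibitors rose in part. Of 17 tested, 8 rose, 2 fell and 7 were not called, at a median log2 ratio of 0.97. Mmp13, the collagenase of osteoblasts and hypertrophic cartilage, read 1628, 1059 and 4467 CPM and rose 4.22-fold (3.99 to 4.46). A UMI of it was seen in 45.2% of P10 control, 42.7% of P10 mutant and 97.7% of 3-month osteoblasts, and in fibroblasts its level was 277, 135 and 29.1 CPM. Mmp14, which activates other proteases at the cell surface, rose 3.67-fold (3.12 to 4.31), and the inhibitors Timp2 and Timp3 rose 5.44-fold and 4.63-fold. Serpine2 rose 3.59-fold and the serine protease Htra1 8.41-fold. Serpinf1, whose loss causes a form of brittle bone disease, fell 2.61-fold (2.34 to 2.91), from 2281 to 875 CPM.

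Signals to osteoclasts and growth factor receptors rose in part. Tnfsf11 (RANKL) read 33.1, 17.8 and 77.8 CPM and rose 4.37-fold (2.75 to 6.81), and Csf1 read 33.4, 27.0 and 113 CPM and rose 4.18-fold (2.87 to 6.02). Of 31 Tnfsf11 UMIs at 3 months, 25.8% came from 1 cell. Tnfrsf11b (osteoprotegerin), which blocks RANKL, read 15.3 and 15.1 CPM in the mutants. Of 8 tested coupling genes 4 rose and none fell, among them Cxcl12 at 5.87-fold (4.12 to 8.32). Fgfr2 and Fgfr3, receptors that shape membranous bone growth, rose 6.39-fold (4.67 to 8.71) and 9.02-fold (5.94 to 13.7), while Fgfr1 had a ratio of 1.40 and the PTH receptor Pth1r one of 1.11 (0.960 to 1.28). Of 17 tested genes of the IGF, FGF, PTH and hedgehog list 5 rose and 2 fell. Among BMP and TGF-beta genes 10 of 22 rose and none fell, at a median log2 ratio of 0.91, with Tgfb2 at 4.39-fold and Bmp3 at 2.32-fold (20.2% of UMIs in 1 cell). Relative to the median of all genes 4 rose and 1 fell. When cells were thinned to 2000 UMIs, 4 genes of that list could be tested and the median was -0.30. In the Wnt list 2 rose and 6 fell of 20, at a median of 0.24, the same as over all genes, which turned to -1.001 at the 5% mitochondrial limit (13 tested). The 6 were Lrp5, Sost, Dkk1, Frzb, Wif1 and Notum, of which all but the receptor Lrp5 code for secreted inhibitors. Secreted inhibitors did not all fall, since Sfrp4 was called higher. Its ratio was 3.31 among cells with a UMI of Spp1 or Ifitm5, and 0.788 among Mmp13-rich cells, defined below. Wif1 fell 4.40-fold (3.23 to 6.16), while Lrp5 and Notum rest on 3 and 1 UMIs at 3 months.

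Of 20 tested genes of the MHC class I and interferon list 13 rose and 2 fell in osteoblasts, at a median log2 ratio of 1.43. For the same 20 genes a ratio of at least 2 was reached by 15 in fibroblasts and 9 in all other kept cells, and one of at most 0.5 by none. B2m rose 4.97-fold (4.42 to 5.58) and H2-K1 6.77-fold (5.86 to 7.81), and in fibroblasts they rose 6.26-fold and 19.2-fold. H2-Q7 rose 43.1-fold (25.7 to 76.1). Of ribosomal protein genes 1 of 26 was called, lower, yet all 26 lay below the median of all genes. In the glycolysis and hypoxia list 4 of 18 fell and none rose, at a median of -0.67. Of 13 tested imprinted growth genes 5 fell, among them H19 (89 UMIs to 0), Rian (164 UMIs to 0) and Meg3 (14.3-fold lower). Cdkn1c was called higher, but its ratio was 1.12 among cells with a UMI of Spp1 or Ifitm5. Of 28 tested immediate early and stress genes 4 rose and 4 fell, at a median log2 ratio of 0.15 against 0.24 over all genes. The immediate early genes Fos, Jun and Egr1, which also respond to dissociation, rose 2.52-fold, 2.21-fold and 3.58-fold. Fos had a ratio of 1.43 in fibroblasts.

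By the counting interval, the genes called furthest up at 3 months were Igkc, Ogn, Lpl, H2-Q7, Obp2a, Postn, AY036118, Gm42418, Lars2, Obp2b, Thsd4 and Ccdc3. Several of these are not known as osteoblast genes. Igkc, an antibody light chain, was 158-fold higher, and 254-fold higher in fibroblasts. The odorant-binding proteins Obp2a and Obp2b were higher 30.4-fold and 38.3-fold, against 22.4-fold and 25.97-fold in fibroblasts. The gland markers Obp1a, Obp1b and Mup4 summed to 0 CPM in P10 mutant and 283 CPM in 3-month osteoblasts, to 0 and 300.3 CPM in fibroblasts and to 0.159 and 363 CPM in other kept cells. Gm42418 and AY036118, which overlap ribosomal RNA, and Lars2 were higher 21.6-fold, 27.1-fold and 23.5-fold, and in all other kept cells 21.7-fold, 16.7-fold and 17.0-fold. The last 3 and the immunoglobulin therefore moved alike in unrelated cells. Lpl, the lipase that frees fatty acids, rose 45.3-fold (33.1 to 63.1) from 13.4 to 604 CPM and stood at 1.03 in fibroblasts, and Thsd4 and Ccdc3 stood at 24.6-fold and 19.9-fold against 1.74 and 1.13. The genes furthest down were Cpz, Cgref1, Col11a2, Cthrc1, Car3, Slc13a5, Col1a1, Lipc, Pcsk6, Pcolce2, Ftl1-ps1 and Col1a2. Cpz, a carboxypeptidase that binds Wnt proteins, had 772, 785 and 0 UMIs. It was at least 23.5-fold lower by the counting interval, and in fibroblasts its ratio was 0.098. Cgref1 went from 1599 UMIs to 4, 44.3-fold lower (17.3 to 163). Cthrc1, secreted by cells that lay down collagen, fell 19.5-fold (10.6 to 40.7). Slc13a5, the citrate carrier, had 299 UMIs and then 0, at least 8.94-fold lower by the counting interval. Car3 fell 14.5-fold and also stood at 0.00887 in fibroblasts.

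The P10 osteoblasts were not uniform, and one range among them ran along Mmp13. This division was chosen after the values were seen. Cells with at least 0.05% of UMIs from Mmp13 were called Mmp13-rich: 74 of 221 control cells (33.5%), 50 of 199 P10 mutant cells (25.1%) and 37 of 44 3-month cells (84.1%). Between 0.025% and 0.1% lay 23, 22 and 7 cells, so the line cuts a continuum, although 121, 114 and 1 cells had no Mmp13 UMI. Median depth was 16310 UMIs in rich and 18569 in poor cells of the control, and 15152 and 17620 in the mutant at P10.

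Within each P10 library the Mmp13-rich cells had more of a set of secreted and surface proteins. Spp1 read 63669 CPM in rich against 11709 in poor cells of the control and 47488 against 11951 in the mutant at P10, ratios of 5.44 and 3.97. Tnc was 9.87-fold and 11.0-fold higher, Timp3 8.25-fold and 9.26-fold, Igfbp4, which holds back IGF, 8.60-fold and 6.87-fold, and Postn 5.71-fold and 13.3-fold. Tnfsf11 read 92.5 against 5.51 CPM in the control and 58.2 against 4.44 CPM in the mutant at P10. Csf1 read 88.6 against 7.72 CPM and 82.8 against 8.52 CPM. Of the Tnfsf11 UMIs, 117 of 132 in the control and 52 of 64 in the mutant at P10 came from the Mmp13-rich cells. Ccn5, a matricellular protein, read 145 against 1.47 CPM in the control and 92.9 against 0 CPM in the mutant at P10. Mmp9, a gelatinase that is also an osteoclast marker, read 83.1 against 4.78 CPM and 160 against 3.33 CPM, and of its P10 mutant UMIs 51.3% came from 1 cell. Runx2 was 2.46-fold and 1.69-fold higher in the Mmp13-rich cells and Sp7 lower, at ratios of 0.690 and 0.673.

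The Mmp13-poor cells of P10 held more bone collagen and mineral genes. Col1a1 in rich over poor cells had ratios of 0.433 and 0.641, Col11a2 of 0.253 and 0.452, and Col24a1 of 0.112 and 0.208. Ifitm5 read 377 against 1321 CPM in the control and 383 against 888 CPM in the mutant at P10. Smpd3 had ratios of 0.206 and 0.411 and Phex of 0.363 and 0.353. Sost read 0 against 62.9 CPM in the control and 2.24 against 24.4 CPM in the mutant at P10. The poor cells held 171 of 171 Sost UMIs in the control and 66 of 68 in the mutant at P10. Alpl differed little, at ratios of 1.26 and 1.07, and Dmp1 was higher in rich cells at 1.82 and 1.32. Across cells the Spearman correlation of Mmp13 with Tnc was 0.71, 0.58 and 0.47 in the control, P10 mutant and 3-month mutant (221, 199 and 44 cells), with Spp1 0.63, 0.51 and 0.37, and with Col1a1 -0.62, -0.38 and -0.16. The cells of a library share its preparation and range widely in depth.

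**Figure D5:**
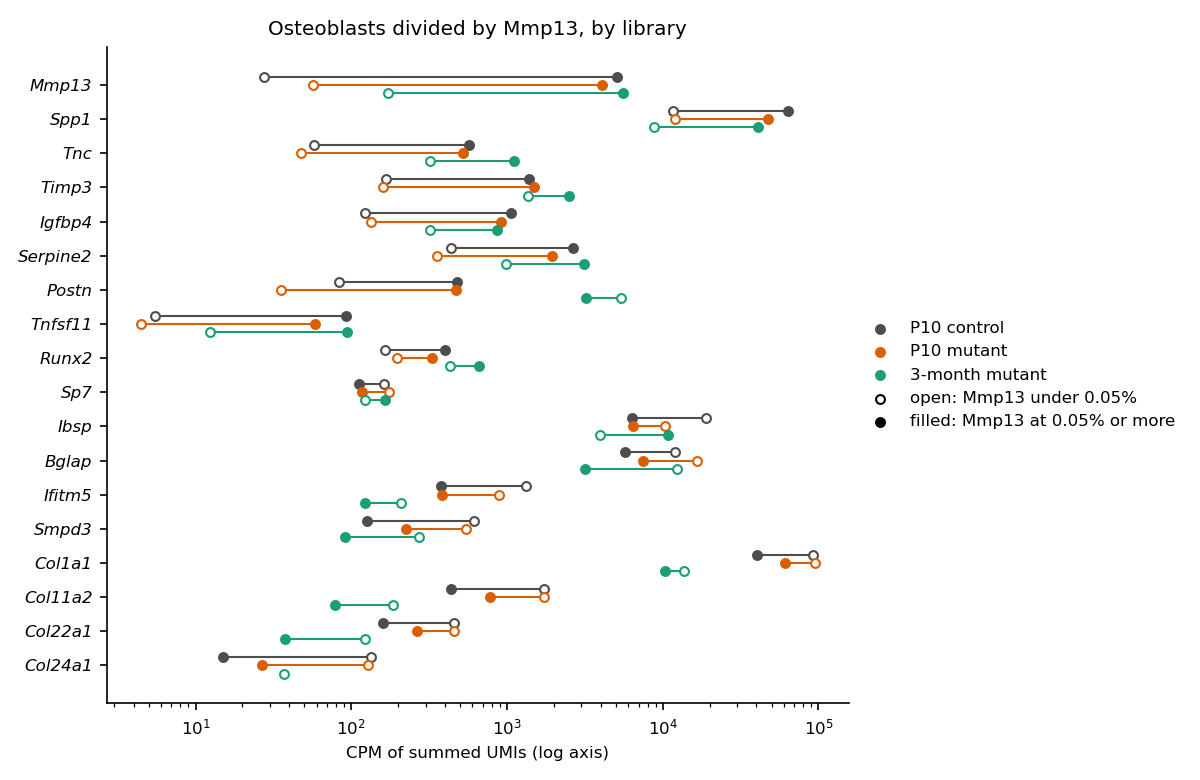
CPM of summed UMIs (logarithmic x axis) of 18 genes in Mmp13-poor cells (open circles) and Mmp13-rich cells (filled circles) of each library. Missing circles are levels of 0. In both P10 libraries Spp1, Tnc, Timp3 and Tnfsf11 are higher and Col11a2, Col24a1, Ifitm5 and Smpd3 lower in Mmp13-rich cells. The 3-month poor cells number 7.

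The age differences were then taken among Mmp13-rich cells alone (50 against 37). Several genes that marked Mmp13-rich cells at P10 lay closer to a ratio of 1 there than among all osteoblasts. Spp1 had a ratio of 0.857, Igfbp4 of 0.939, Timp3 of 1.68 (1.54 to 1.84), Serpine2 of 1.61 and Tnfsf11 of 1.62 (1.00 to 2.59). Other differences stayed past the called fold. Col1a1 was still 5.89-fold lower, Col11a2 9.89-fold lower (25 UMIs at 3 months) and Ifitm5 3.12-fold lower. Postn was 6.85-fold higher (6.10 to 7.69), Alpl 4.05-fold (3.35 to 4.92), Fgfr3 4.38-fold (2.64 to 7.39), Lpl 18.3-fold (12.4 to 27.9) and H2-K1 8.02-fold. Runx2 stood at 1.99 (1.66 to 2.38) and Tnc at 2.12 (1.84 to 2.44). Of the genes called lower, Mmp9 had a ratio of 0.079 on 4 UMIs at 3 months.

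Few osteoblasts had many transcripts of cell division. Of 26 cell cycle genes, 9 could be tested with age, 6 were lower and none higher, while at P10 3 of 20 were lower in the mutant, each with over 20% of UMIs in 1 cell. Top2a, Cdk1, Birc5 and Ube2c had no UMI in the 3-month osteoblasts. After each cell was thinned to 2000 UMIs (24, 24 and 0 shallower cells left out), at least 1 cell cycle UMI was seen in 36.0%, 34.9% and 29.5% of osteoblasts, against 82.4%, 81.4% and 77.3% without thinning. Cells with at least 10 Omp UMIs, which are mature neurons that do not divide, had 56.7%, 40.5% and 40.5% after thinning, at median depths of 28008, 29610.5 and 28492 UMIs before it, so the osteoblast shares were read as background. At least 5 such UMIs were seen in 8 of 197 control osteoblasts, in 6 of 175 P10 mutant osteoblasts and in 0 of 44 at 3 months. For those 44 cells a floor of 3 cells is 6.82%. In the Omp cells 1 of 97, 0 of 42 and 0 of 42 reached that number.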

How the data were processed

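The deposited files are filtered gene by cell matrices of UMI counts, 1 per library, made by the authors from 10x Genomics 3′ v3.1 libraries of frozen, papain-dissociated VNO. Per the labels, reads were processed with Cell Ranger 4.0.0 against mm10. The header of the 3-month matrix names version 6.0.1 instead, and both P10 headers 4.0.0, so software and age cannot be told apart. Members and gene lists were chosen with earlier results of these data known. No doublet caller and no correction for free RNA were run, and the number of animals per library was not given.

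UMIs were summed over the cells of a library and divided by their total (CPM). Intervals were exact Poisson for CPM, conditional exact binomial for ratios and Clopper-Pearson for shares. A gene was tested at 50 or more UMIs in both libraries together and called at a ratio of at least 2 or at most 0.5. A 0 was set to 3 counts for point ratios and for the floor of a share. Named genes were the markers and listed genes, the 12 called genes per direction with the most extreme counting bound (genes with over 20% of UMIs in 1 cell and mt- genes left out) and the 20 genes furthest above fibroblasts. Those 20 genes also had at least 50 UMIs in the osteoblasts of every library. Python 3.11.15, numpy 2.4.6 and scipy 1.17.1 were used. The ratio script was tested on simulated data. Sequences came from RefSeq, positions from the GRCm38 annotation. Some results are not reported here.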

Additional observations from a re-analysis of the deposited data

How the results depend on the processing

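No paired analysis was possible because each group has 1 library. Results were recomputed under other cell rules, scalings and gene filters. Restriction to Mmp13-rich cells, to cells with a UMI of Spp1 or Ifitm5, totals without type I collagen and dropping the collagen condition were chosen after seeing the data.

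The osteoblast share became 6.83, 6.66% at a 5% mitochondrial limit and 4.44, 4.17% at 20 UMIs and 0.6% (P10 control, P10 mutant), and 2.97, 2.97 and 0.603% without cells holding a UMI of Ptprc, Pecam1, Cdh5, Epcam or Omp. At P10 the calls higher and lower became 27 and 72 without those cells, 178 and 283 with mean CPM per cell, 229 and 340 at a minimum of 20 UMIs, 18 and 22 at 200, and 7 and 14 after thinning to 2000 UMIs; the 5% limit gave 37 higher. The 17 listed genes called at P10 (8 higher and 9 lower) became 36 at the 5% limit (2 and 34) and 11 without those cells (2 and 9). They became 9 at 200 UMIs (5 and 4) and 3 when thinned (2 and 1). In Mmp13-rich cells they became 27 (8 and 19), and with no collagen condition 26 (6 and 20). With age the calls became 660 and 369 without those cells, 1903 and 1167 at 20 UMIs, 267 and 183 at 200, 132 and 100 thinned, 305 and 183 in Mmp13-rich cells, and 674 higher by median-ratio scaling. That scaling put the glycolysis median at -0.90 and the ribosomal median at -0.67; totals without type I collagen put glycolysis at -0.86, and thinning put BMP and TGF-beta at -0.30. With a UMI of Spp1 or Ifitm5 required, the ribosomal median was -0.28 and 890 and 722 genes were called with age. A stricter fibroblast rule left 339 genes lower. Tfap2e in the P10 mutant was 26.4 CPM at the 5% limit. Cycling shares were 82.4, 81.4 and 77.3% unthinned and 23.98, 26.6 and 9.09% at 1000 UMIs.

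Directions turned for Meg3 (0.287, 5% limit), Tnn (1.07) and Cdkn1c (1.30) in Mmp13-rich cells and H19 (0.617, no collagen condition) at P10, and for Sfrp4 with age (0.788, Mmp13-rich). Taking only the cells at both ends of the Bglap share (tertiles) gave Ifitm5 0.309 and 0.543, Smpd3 0.552, 0.604 and 1.01 (turned), Dmp1 9.96 and 3.401, Mmp13 0.409 in the control and 0.269 at 3 months, and Spp1 1.58, 1.40 and 0.179. The causes were not tested.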
